A study of Homo sapiens with 6 samples.

Results

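TBL1XR1, TBL1X, NCOR1, HDAC3 and GPS2 encode 5 subunits of the NCOR corepressor complex, and the peaks at these genes are described here in 6 Omni-ATAC libraries of the established myeloma line MM.1S. The 5 genes were taken by name from 20033 protein-coding genes, and their windows (the gene body and 50 kb on each side, GENCODE release 44 on hg38) held 61 of 89196 merged regions. TBL1XR1 was chosen by its number of regions called with DMSO alone, in the same libraries, so its counts are a description with no test. The other 4 genes, called partners here, were added for their place in the complex.

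All libraries came from the same unmodified line, and live cells were sorted by flow cytometry before the assay. In 3 libraries the cells had been kept for 72 h with 120 nM CB-6644, an inhibitor of the ATPases RUVBL1 and RUVBL2. These ATPases sit in several complexes that remodel chromatin. In the other 3 they had been kept with the vehicle, DMSO. The labels do not say whether the replicates of a group were separate cultures, so that p-values measure the spread between libraries, which may be technical.

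The NCOR complex represses transcription. NCOR1 is the scaffold that binds unliganded nuclear receptors and other DNA-binding factors. HDAC3 is the histone deacetylase of the complex and needs the scaffold for its activity. TBL1X and TBL1XR1 are closely related WD40-repeat proteins that bind histones and take part in the exchange of corepressors for coactivators, and GPS2 is a core subunit that binds both NCOR1 and TBL1X. In lymphoid cancers TBL1XR1 is a recurrent target of mutation and deletion.

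Omni-ATAC marks open chromatin, where a transposase inserts adapters. The authors called peaks in each library on its own. A merged region joins peaks of all libraries that overlap by at least 1 bp. A region was DMSO-only when all 3 DMSO lists and no CB-6644 list had a peak in it, and CB-6644-only when the reverse held. The strength of a peak is given as the percentile of its -log10 p within its own list, 100 being the strongest, and as its summit pile-up, the number of overlapping tags recovered from the fold and p-value in the list. On the main chromosomes, the only ones used here, the lists held 58563 to 71781 peaks with CB-6644 and 65569 to 79020 with DMSO. Their genome-wide background, which stood in for depth because the lists give no read totals, was 3.20 to 7.05 tags per kb with CB-6644 and 6.40 to 9.08 with DMSO. The lowest pile-up called with CB-6644 was 7 tags in replicate 1, 4 in replicate 2 and 8 in replicate 3. A site without a peak was not detected at that depth, which does not show that it was closed. CB-6644 replicate 2 and DMSO replicate 1 stood apart from the other 4 libraries in their shortest peak, at 65 and 91 bp against 131 to 152 bp. Of 9 plasma cell markers, 8 had a promoter peak in all 6 libraries, and JCHAIN had one in 3. MS4A1 and CD22 of earlier B cells, CD3D, CD3E and CD2 of T cells, and LYZ and CSF1R of myeloid cells had none, whereas PAX5, CIITA, CD14, COL1A1 and EPCAM had one in all 6 and KRT8 in 1.

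TBL1XR1 had its promoter peak in every library and fewer peaks in its window after CB-6644. The gene (ENSG00000177565.19, chr3:177019340-177228000, minus strand) is 209 kb long and has 20 annotated start sites for its coding transcripts, and no other protein-coding gene lies in its window. The window held 13, 10 and 10 peaks in CB-6644 replicates 1, 2 and 3 and 17, 18 and 16 peaks in DMSO replicates 1, 2 and 3. The CB-6644 libraries averaged 11 ± 1.73 peaks and the DMSO libraries 17 ± 1 (SD, n = 3 per group), and the groups did not overlap. The same held within the 4 libraries of longer shortest peak, with 13 and 10 peaks against 18 and 16, and between the other pair of libraries, with 10 against 17. Because the gene was chosen on calls in these same libraries, a gap of this kind follows largely from the choice, and nothing is read from it. Per 10000 peaks of a list the values were 2.19, 1.39 and 1.71 with CB-6644 and 2.15, 2.53 and 2.44 with DMSO, and then CB-6644 replicate 1 lay just above DMSO replicate 1. In a bulk assay, fewer cells with an open site and less opening per cell cannot be told apart.

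**Figure D1:**
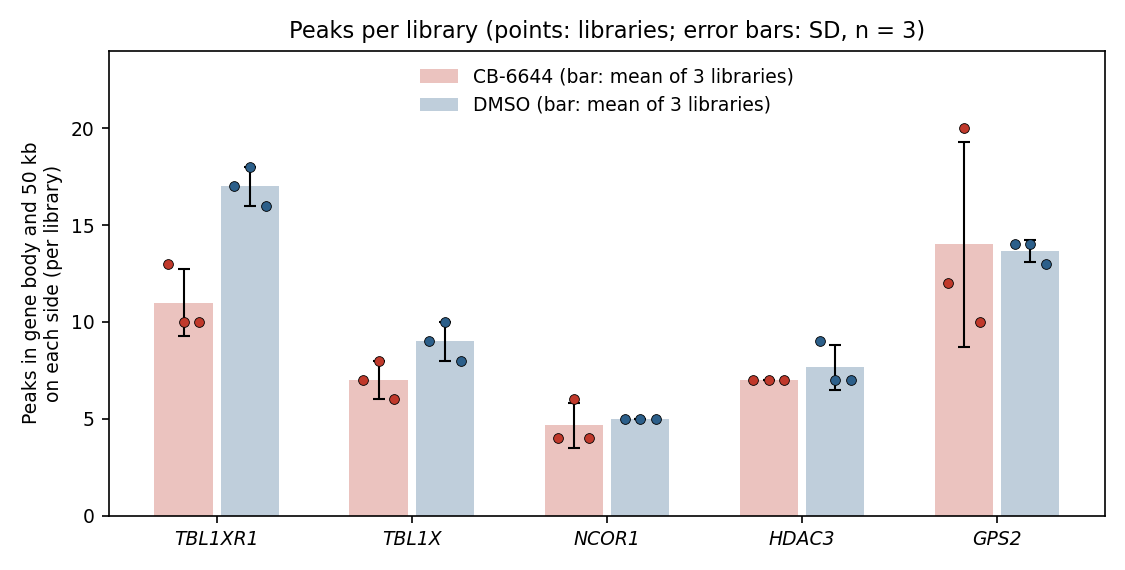
Peaks per library (y axis) in the gene body and 50 kb on each side of each member gene (x axis); points are libraries, bars are means of 3 libraries and error bars are SDs. At TBL1XR1 the CB-6644 libraries held 10 to 13 peaks and the DMSO libraries 16 to 18, whereas at GPS2 the CB-6644 libraries ran from 10 to 20 around the 13 to 14 peaks of the DMSO libraries.

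The peaks at TBL1XR1 fell into 23 merged regions. Of these, 7 were called in all 6 libraries (30.4%, against 47.2% of all merged regions), 5 were DMSO-only, 0 were CB-6644-only and 11 had other patterns. The DMSO-only regions made up 21.7% of the window's regions, against 4.5% of all merged regions and 5.3% of those outside promoters. CB-6644-only regions made up 0.586% of all merged regions. More DMSO than CB-6644 libraries had a peak in 10 regions (43.5%, against 32.5% of all regions), and the reverse held in 6 (26.1%, against 12.8%). Since the gene was chosen for the first of these counts, nothing is read from them.

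**Figure D2:**
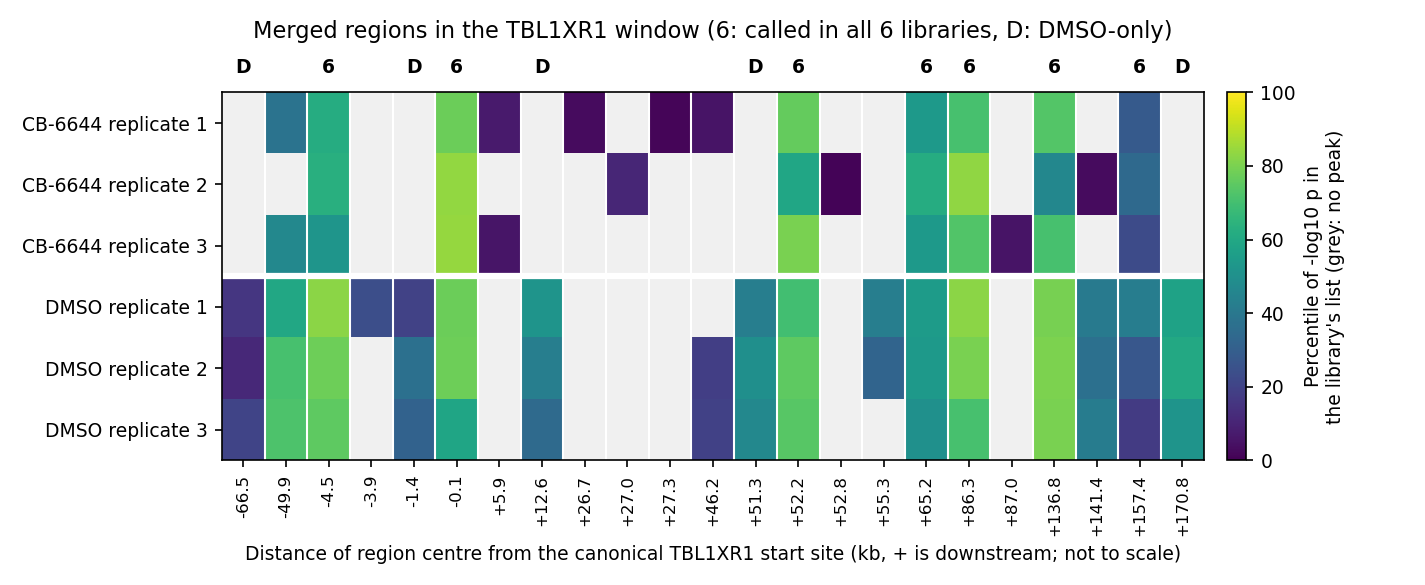
The 23 merged regions of the TBL1XR1 window (columns, ordered by the distance of their centre from the canonical start site in kb, positive downstream) in the 6 libraries (rows), with color for the percentile of -log10 p within each list and grey for no peak. The 5 columns marked D have color in the DMSO rows alone, and the promoter column at -0.1 kb has color in all 6 rows.

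The 5 DMSO-only regions of TBL1XR1 were spread over the gene and its upstream flank, and none was within 1000 bp of an annotated start site of a coding transcript. For 3 of them the 201 bases of hg38, plus strand, around the strongest summit are shown as examples of the sites the gene was chosen for, and they do not stand for all 5. Capitals mark matches to the consensus sequences searched. From the 3′ end of the gene to the upstream flank these 3 were:
chr3:177026586-177026786: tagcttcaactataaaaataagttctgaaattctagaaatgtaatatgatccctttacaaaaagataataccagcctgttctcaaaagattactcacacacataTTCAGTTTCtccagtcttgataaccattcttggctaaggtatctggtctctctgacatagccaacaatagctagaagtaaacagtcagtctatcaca
chr3:177146127-177146327: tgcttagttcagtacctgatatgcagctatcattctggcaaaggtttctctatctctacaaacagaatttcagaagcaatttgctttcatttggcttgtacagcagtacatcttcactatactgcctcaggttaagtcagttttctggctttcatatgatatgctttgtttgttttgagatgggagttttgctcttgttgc
chr3:177263827-177264027: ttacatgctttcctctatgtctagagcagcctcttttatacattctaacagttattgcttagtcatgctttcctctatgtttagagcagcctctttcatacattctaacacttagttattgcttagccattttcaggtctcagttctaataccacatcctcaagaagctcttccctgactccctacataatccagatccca

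The strongest of the 5 was the most downstream one (region chr3:177026575-177026825), 170.8 kb from the canonical start site, in an exon of a transcript that has no coding part there. Its peaks lay at the 57.6th, 60.5th and 51.9th percentile in DMSO replicates 1, 2 and 3, with summit pile-ups of 34, 60 and 48 tags (47.3 ± 13.0, SD, n = 3). All 3 peaks were above the middle of their lists, whereas no CB-6644 list had a peak there.

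The next region (chr3:177146026-177146341) was intronic, 51.3 kb downstream of the canonical start site. Its pile-ups were 45, 88 and 82 tags in DMSO replicates 1, 2 and 3 (71.7 ± 23.3, SD, n = 3), at the 42.7th to 49.8th percentile. It lay under 1 kb from a region called in all 6 libraries (chr3:177144973-177145616), where the CB-6644 pile-ups were 103, 27 and 135 tags and the DMSO pile-ups 80, 148 and 138. One of these neighbors was therefore called in every library and the other in the DMSO libraries alone.

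The other intronic region downstream of the start (12.6 kb from it) had pile-ups of 30, 40 and 32 tags in DMSO replicates 1, 2 and 3 (34.0 ± 5.29, SD, n = 3), at the 51.7th, 42.7th and 34.6th percentile. Of the 5 it varied least in pile-up between libraries relative to its mean.

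The region nearest to the promoter lay 1.4 kb upstream of the canonical start site, in an intron of transcripts that start further upstream. It had the highest pile-ups of the 5, at 52, 114 and 98 tags in DMSO replicates 1, 2 and 3 (88.0 ± 32.2, SD, n = 3). Its fold over local background was the lowest of the 5, at 3.75, 4.05 and 3.9, against 7.32 to 22.7 in the other 4. A high pile-up and a low fold mean that the local background was high at this site, which borders the promoter.

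The weakest region (chr3:177263777-177264187) was intergenic, 66.5 kb upstream of the canonical start site. Its pile-ups were 13, 17 and 22 tags in DMSO replicates 1, 2 and 3 (17.3 ± 4.51, SD, n = 3), at the 15.9th, 11.5th and 20.4th percentile, so that it lay in the lower part of every DMSO list.

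The consensus sequences searched, on both strands, were AP-1 (TGANTCA), the TCF4 E-box (CAGGTG), IRF (GAAANNGAA), ATF4-CEBP (TGATGNAA), MAF (TGCTGAC), ETS (CCGGAAG), NRF1 (GCGCANGCG), SP/KLF (GGGCGG) and the CCAAT box. In the stretch of the most downstream region the IRF consensus matched on the minus strand. Over all 89196 regions it was present in 13.7%, and a match is a run of letters, not a bound site.

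Which regions were DMSO-only changed with the number of peaks taken from each list. When each list was reduced to its strongest peaks, as many as the shortest list holds, the region next to the promoter and the one in the upstream flank were no longer DMSO-only, and an intronic region 141.4 kb downstream became so. The flank region also dropped out when peaks had to cover 50% of a region. With the 20000 strongest peaks of each list 0 of the 5 remained. Of the CB-6644 lists, those of replicates 1 and 3 were shorter than every DMSO list, and the CB-6644 background was the lower one in 8 of the 9 pairings of libraries, and the part of this in the DMSO-only calls was not tested.

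The regions just outside the rule were also looked at. An intronic region at chr3:177055992-177056185, 141.4 kb downstream, had pile-ups of 36, 55 and 62 tags in the DMSO libraries and a single CB-6644 peak, in replicate 2, with 6 tags at the 2.8th percentile of its list. Another at chr3:177141986-177142292 had 44 and 62 tags in DMSO replicates 1 and 2 and no peak elsewhere. In the reverse direction, an intronic region at chr3:177191433-177191657 was called in CB-6644 replicates 1 and 3 alone, with 18 and 19 tags at the 7.3rd and 5.8th percentile. Past the upstream edge of the window, at chr3:177282244-177282462, lay a CB-6644-only region whose nearest coding start site was that of TBL1XR1. Among the TBL1XR1 regions of other pattern, 6 were called in a single library, 5 of them in a CB-6644 library, and the 5 lay at the 0.9th to 10.6th percentile.

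The TBL1XR1 promoter was open in every library. Its region (chr3:177197094-177198074) covers the canonical start site at 177197482. Its pile-ups with CB-6644 were 156, 90 and 246 tags in replicates 1, 2 and 3, and with DMSO 150, 236 and 148 tags. Pile-up is not scaled for depth. Its percentiles were 77.4, 83.7 and 84.3 with CB-6644 and 77.7, 77.9 and 58.7 with DMSO. On the scale of log2 fold enrichment, quantile normalized over the 42089 regions called in all 6 libraries, the promoter stood at 3.23, 4.07 and 3.37 with CB-6644 and at 3.16, 3.02 and 2.67 with DMSO. The groups did not overlap, and the difference was 0.61 (SE 0.27), the highest among the 7 TBL1XR1 regions called in all libraries. Without CB-6644 replicate 2 it was 0.36, below the 0.47 of an intronic region (chr3:177144973-177145616), and without any other library it was 0.46 to 0.78. It was 0.43 with summit pile-up. Over all regions called in 6 libraries, 10.7% had groups that did not overlap with CB-6644 the higher one, and 9.89% of those at promoters.

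The sequence before the start site is shown because the promoter was called in every library. RefSeq gives the following 250 bases on the minus strand (GRCh38.p14, chr3:177197483-177197732), with SP/KLF matches in capitals, of which there are 4 in 2 overlapping pairs:
TBL1XR1 promoter: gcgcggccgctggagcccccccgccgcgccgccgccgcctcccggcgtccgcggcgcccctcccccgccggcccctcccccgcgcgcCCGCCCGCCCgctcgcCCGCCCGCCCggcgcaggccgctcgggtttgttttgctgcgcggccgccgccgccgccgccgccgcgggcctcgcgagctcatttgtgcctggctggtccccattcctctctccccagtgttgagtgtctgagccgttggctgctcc
Its GC content was 81.2%. The SP/KLF consensus occurs in 42.6% of the 35116 RefSeq promoter stretches of this length, on either strand.

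The other 6 TBL1XR1 regions called in every library differed in both directions. An intronic region 52.2 kb downstream (chr3:177144973-177145616) stood at 4.14, 4.06 and 4.37 with CB-6644 and 3.77, 3.75 and 3.75 with DMSO on the normalized log2 scale, a difference of 0.44 (SE 0.16) with no overlap, which was -0.01 when summit pile-up was used in place of fold. The region 65.2 kb downstream differed by 0.17 (SE 0.14), again with no overlap. The region 4.5 kb upstream (chr3:177201738-177202160) had the lowest difference, -0.27 (SE 0.27), from 2.86, 3.47 and 2.54 with CB-6644 and 3.44, 3.07 and 3.16 with DMSO, and its groups overlapped. This difference was -0.55 without CB-6644 replicate 2, -0.06 without CB-6644 replicate 3, -0.16 without DMSO replicate 1 and -0.46 with summit pile-up. The median difference of the 7 regions was 0.11, against 0.022 over all regions called in 6 libraries, 0.089 over those at promoters, -0.029 over the others and 0.10 over the partners' 24 regions. Without DMSO replicate 3 the TBL1XR1 median was 0.026. These medians hold only sites with a peak in every library, so sites not called in any one CB-6644 or DMSO library are left out of them.

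The TBL1XR1 regions called in both groups but not in all libraries numbered 3, and in each the CB-6644 peaks lay at lower percentiles than the DMSO peaks, which is given as a description because the gene was chosen on these calls. One was the intronic region 141.4 kb downstream described above. In another (chr3:177151114-177151405), intronic, CB-6644 replicate 1 had 14 tags at the 5.3rd percentile, and DMSO replicates 2 and 3 had 29 and 28 tags at the 18.5th and 19.4th. In the third, intergenic at 49.9 kb upstream (chr3:177247034-177247765), CB-6644 replicates 1 and 3 had 31 and 46 tags at the 38.1st and 46.8th percentile, and the DMSO libraries had 41, 92 and 95 tags at the 60.1st to 72.0th.

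**Figure D3:**
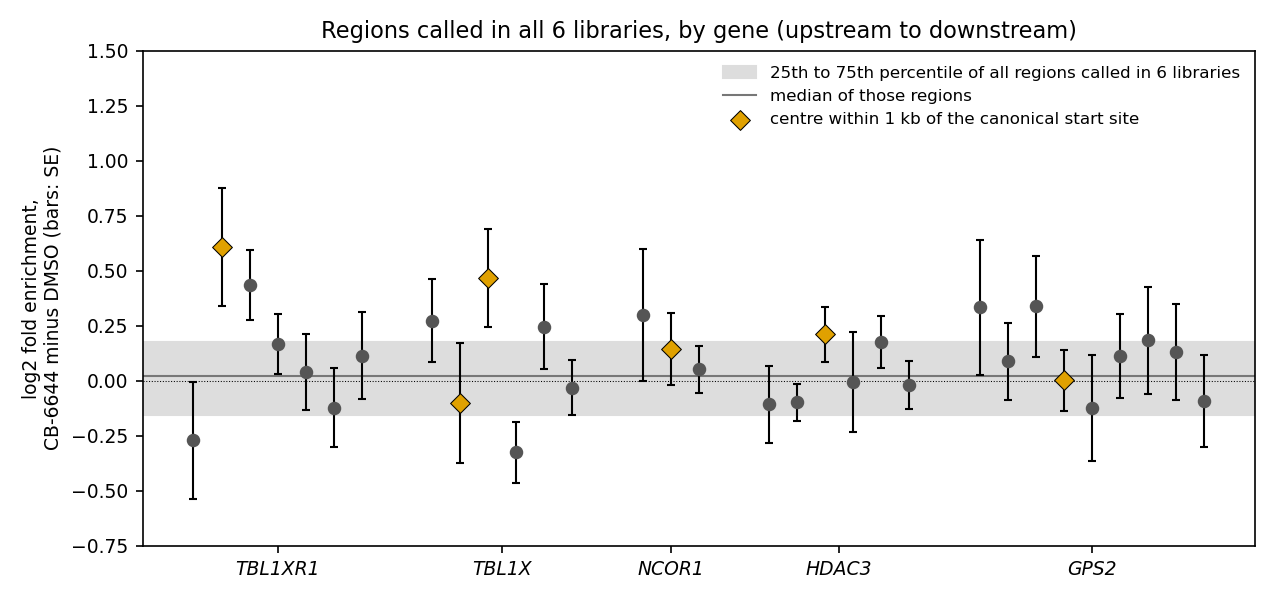
Difference in normalized log2 fold enrichment, CB-6644 minus DMSO (y axis, bars are SE), for the 31 member regions called in all 6 libraries, by gene (x axis, upstream to downstream); diamonds mark regions centred within 1 kb of the canonical start site, and the grey band holds the middle 50% of all such regions. The TBL1XR1 promoter has the highest value, 0.61, and an intronic TBL1X region the lowest, -0.33.

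The partners were compared next. Their promoters were open in all 6 libraries, and most of their regions were called in all of them. Of 38 partner regions, 24 were called in all 6 libraries (63.2%, against 47.2% of all merged regions). Another 4 were DMSO-only (10.5%, against 4.5% of all merged regions), 1 was CB-6644-only (0.586% of all merged regions were) and 9 had other patterns. By gene, 19.8% of all protein-coding genes had a DMSO-only region in the same kind of window and 4.29% had a CB-6644-only region. TBL1X had 2 DMSO-only regions, NCOR1 and GPS2 had 1 each, and HDAC3 had 0. In none of the 4 was the partner the gene with the nearest protein-coding start site.

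Summed over the partner windows there were 30, 41 and 27 peaks in CB-6644 replicates 1, 2 and 3 and 37, 36 and 33 in DMSO replicates 1, 2 and 3. The means of 32.7 ± 7.37 and 35.3 ± 2.08 (SD, n = 3 each) differed by -2.67, less than the spread between CB-6644 libraries. An exact permutation test of this difference, two-sided, gave p = 0.6, where 3 against 3 libraries cannot go below 0.1. The high value of CB-6644 replicate 2 came with 20 peaks in the GPS2 window. Within the 4 libraries of longer shortest peak the difference was -6 (exact permutation test, two-sided, p = 0.333, the smallest that 2 against 2 libraries allow), whereas the other set held 1 library of each group. Per 10000 peaks of a library the difference changed sign, to 0.198 (exact permutation test, two-sided, p = 0.8).

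**Figure D4:**
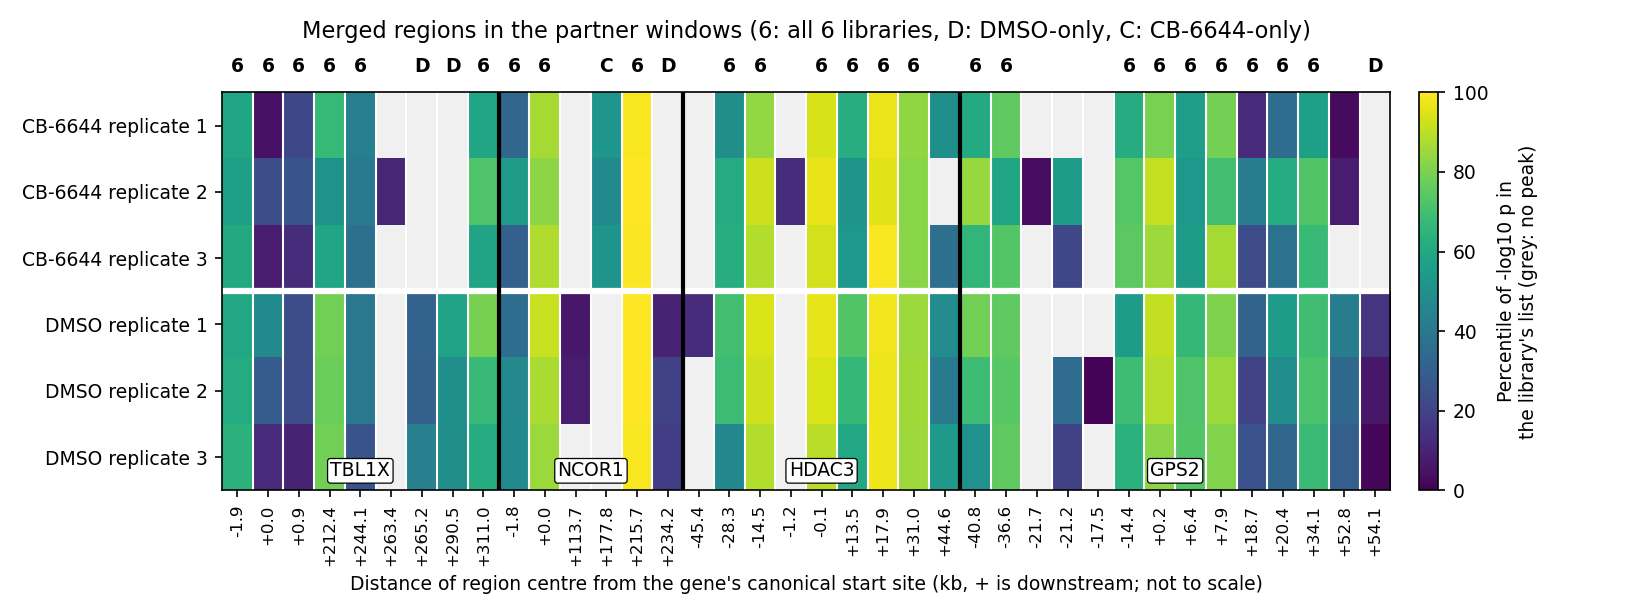
The 38 merged regions of the TBL1X, NCOR1, HDAC3 and GPS2 windows (columns, ordered within each gene by distance from its canonical start site in kb, positive downstream) in the 6 libraries (rows), with color for the percentile of -log10 p in each list and grey for no peak. Most columns have color in all 6 rows; 4 marked D have color in the DMSO rows alone and 1 marked C, in NCOR1, in the CB-6644 rows alone.

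TBL1X (ENSG00000101849.18, chrX:9463320-9741037, plus strand), the paralog of TBL1XR1, had 7, 8 and 6 peaks with CB-6644 and 9, 10 and 8 with DMSO, which overlap at 8. Its 9 regions included 6 called in all libraries. The strongest TBL1X promoter region was chrX:9462977-9463382, 1.88 kb upstream of the canonical start site. It lay at the 56.9th to 60.9th percentile with CB-6644 and the 60.1st to 64.3rd with DMSO. Its difference was 0.27 (SE 0.19, adjusted p = 0.53 by limma), with groups that did not overlap, and 0.04 with summit pile-up. The region over the canonical start site (chrX:9464851-9465327) was weak, at the 4.8th, 23.5th and 7.4th percentile with CB-6644 and the 47.6th, 29.1st and 12.1st with DMSO. After normalization its difference was -0.10 (SE 0.27, adjusted p = 0.88 by limma), within the spread between libraries, and it ran from -0.37 without CB-6644 replicate 2 to 0.08 without DMSO replicate 1. The neighboring promoter region (chrX:9465366-9466536) stood at 2.33, 2.4 and 2.22 with DMSO and at 2.74, 3.14 and 2.47 with CB-6644 on the normalized log2 scale. Its difference of 0.47 (SE 0.22) did not pass the test (adjusted p = 0.38 by limma) and was 0.19 with summit pile-up. The largest difference in the other direction was in an intron 212.4 kb downstream (chrX:9677154-9677721), at 4.30, 3.94 and 4.15 with CB-6644 and 4.44, 4.42 and 4.52 with DMSO. That difference of -0.33 (SE 0.14) did not pass either (adjusted p = 0.32 by limma) and was -0.67 with summit pile-up.

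The DMSO-only regions of TBL1X lay at its 3′ end, where GPR143 overlaps it. One (chrX:9730082-9730415) was in an intron of both genes, with 21, 32 and 43 tags in DMSO replicates 1, 2 and 3 at the 30.7th to 43.4th percentile. The other (chrX:9755337-9755752) lay past the end of TBL1X in an intron of GPR143, with 34, 44 and 45 tags at the 49.6th to 57.6th percentile. Within its lists it was close in strength to the strongest DMSO-only region of TBL1XR1. Both had the start site of GPR143, a receptor of melanosomes, as their nearest. The stretches around their summits each hold a CCAAT box on the minus strand (capitals), which 21.5% of all regions have:
chrX:9730118-9730318: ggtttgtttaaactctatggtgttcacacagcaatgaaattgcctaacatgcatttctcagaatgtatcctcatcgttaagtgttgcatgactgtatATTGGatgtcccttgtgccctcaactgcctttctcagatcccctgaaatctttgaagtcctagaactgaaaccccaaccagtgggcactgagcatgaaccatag
chrX:9755480-9755680: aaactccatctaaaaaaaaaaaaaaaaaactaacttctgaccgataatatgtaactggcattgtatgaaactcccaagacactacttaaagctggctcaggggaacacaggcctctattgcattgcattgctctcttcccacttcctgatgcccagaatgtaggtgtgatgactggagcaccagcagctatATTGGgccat

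NCOR1 (ENSG00000141027.23, chr17:16029065-16218185, minus strand), the scaffold, was the only member with a CB-6644-only region. It had 4, 6 and 4 peaks with CB-6644 and 5, 5 and 5 with DMSO. Its promoter region (chr17:16214853-16216121) lay at the 82.5th to 88.1st percentile with CB-6644 and the 84.8th to 91.7th with DMSO, and its difference of 0.14 (SE 0.16, adjusted p = 0.71 by limma) was within the spread and turned to -0.06 with summit pile-up. The largest difference in a region called in all libraries was 0.30 (SE 0.30, adjusted p = 0.67 by limma), at a region shared with the promoter of PIGL, where it was -0.04 without CB-6644 replicate 2 and -0.20 in the 4 libraries of longer shortest peak. The CB-6644-only region (chr17:16037561-16037989) was in an intron of NCOR1 that TTC19 also overlaps, 177.8 kb downstream of the canonical start site and 1.48 kb from an NCOR1 start site. Its pile-ups were 37, 15 and 43 tags in CB-6644 replicates 1, 2 and 3, at the 52.4th, 47.7th and 51.9th percentile, so that it sat near the middle of all 3 lists. The DMSO-only region (chr17:15981266-15981446) was weak, with 11, 21 and 21 tags at the 9.6th to 19.3rd percentile, and lay in an intron of ZSWIM7 in the flank. The stretches below show the CB-6644-only site first, which held no match to the consensus sequences searched, and then the DMSO-only site, with its AP-1 match in capitals, which 10.5% of all regions have:
chr17:16037688-16037888: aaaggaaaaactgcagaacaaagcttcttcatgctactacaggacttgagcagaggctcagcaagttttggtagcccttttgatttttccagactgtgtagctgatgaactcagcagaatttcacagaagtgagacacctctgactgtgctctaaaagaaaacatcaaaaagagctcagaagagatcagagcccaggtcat
chr17:15981248-15981448: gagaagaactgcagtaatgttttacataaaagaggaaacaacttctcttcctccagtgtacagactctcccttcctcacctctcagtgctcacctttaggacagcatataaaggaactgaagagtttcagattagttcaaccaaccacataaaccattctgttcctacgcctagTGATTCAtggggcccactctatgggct

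HDAC3 (ENSG00000171720.10, chr5:141620876-141636849, minus strand), the deacetylase, had no group-only region. Its window held 7, 7 and 7 peaks with CB-6644 and 9, 7 and 7 with DMSO. The promoter region (chr5:141636388-141637603), shared with RELL2, was the strongest of the members' canonical promoters in each library, at the 93.0th to 96.6th percentile with CB-6644 and the 89.8th to 96.5th with DMSO. Its difference of 0.21 (SE 0.12, adjusted p = 0.48 by limma) was the highest in the window and did not pass. The lowest, of -0.11 (SE 0.18, adjusted p = 0.80 by limma), was at a coding exon 28.3 kb upstream (chr5:141664917-141665311) and was 0.06 with summit pile-up.

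GPS2 (ENSG00000132522.16, chr17:7311324-7315564, minus strand) is only 4.24 kb long, and its window holds 10 other protein-coding genes. The promoter region (chr17:7314740-7315656) was at the 79.9th to 91.2nd percentile with CB-6644 and the 82.7th to 90.9th with DMSO. Its difference was 0.0013 (SE 0.14, adjusted p = 0.997 by limma). The largest differences of the window were 0.34 (SE 0.23, adjusted p = 0.53 by limma) at the NEURL4 promoter and -0.12 (SE 0.24, adjusted p = 0.83 by limma) at an EIF5A promoter. Without CB-6644 replicate 2 they were 0.13 and -0.36, and in the 4 libraries of longer shortest peak 0.05 and -0.41, so that the difference at the EIF5A promoter was then the larger in size. The DMSO-only region of the window (chr17:7261090-7261404) was at a promoter of CLDN7, a tight junction protein, 54.1 kb from the GPS2 start site. It was the weakest group-only region of the members, with 16, 19 and 15 tags at the 14.9th, 6.5th and 1.9th percentile. Another CLDN7 promoter region (chr17:7262366-7262831) was not group-only. It had 28, 37 and 34 tags in DMSO replicates 1, 2 and 3, and 11 and 8 tags in CB-6644 replicates 1 and 2.

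Of the 24 partner regions called in all 6 libraries, 0 passed an adjusted p of 0.05 by limma, and 1 had an unadjusted p under 0.05 (the TBL1X intron above). Over all 42089 such regions 0.739% passed, 0.321% higher and 0.418% lower with CB-6644, and 14.4% had an unadjusted p under 0.05. The groups did not overlap in 3 of the 24, all at TBL1X, 2 of them higher and 1 lower with CB-6644, against 10.7% of all such regions in each direction.

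TBL1XR1 was chosen by its number of DMSO-only regions, so its place among all genes follows from that choice and is given as a description. In windows drawn the same way, 11 of the 20033 protein-coding genes (0.0549%), TBL1XR1 among them, had at least 5, and 2 had more, up to 10. Long windows hold more regions. Of 399 genes with 20 to 26 regions in the window, the median had 1 DMSO-only region and 2, TBL1XR1 and SUGCT, had at least 5. By the number of regions in the window, the 3 genes most like TBL1XR1 among those with at least 5 DMSO-only and no CB-6644-only region were SUGCT (21 regions, 5 DMSO-only), RIMS2 (27 regions, 5 DMSO-only) and MCC (32 regions, 5 DMSO-only). USP24 was as near as MCC, with 14 regions, and came after it in the alphabet. SUGCT had 10 regions called in all libraries, RIMS2 5 and MCC 13, beside the 7 of TBL1XR1.

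Other corepressor genes were read from a list of 35. Of their canonical promoters, 32 had a peak in all 6 libraries, and RARA, NR1H3 and PPARG had none. At other annotated start sites, RARA had 1 and NR1H3 had 2 promoter regions called in all 6 libraries, and PPARG had 0. Regions were summed over the genes, so that a region in windows that overlap was counted for each gene. In this sum of 413 regions, 8 were DMSO-only (1.94%, against 4.5% of all merged regions) and 1 was CB-6644-only. Those 8 belonged to 8 genes (22.9% of the list, against 19.8% of all genes). They were the nuclear receptors THRB, RARG, NR1H2, NR1H3 and PPARD, the Notch pathway factor RBPJ, the methyl-CpG-binding repressor ZBTB33 and the Groucho-family corepressor TLE1. THRB also had the CB-6644-only region. CORO2A, another subunit of the complex, had 11 regions, and 0 of these were confined to a group. The class IIa deacetylases HDAC4, HDAC5, HDAC7 and HDAC9, which act through the complex, had 0 group-only regions among 79. Of 249 regions called in all libraries, summed in the same way, 2 passed an adjusted p of 0.05 by limma, against 0.739% of all such regions. Of these 2, 1 was lower with CB-6644, at PPARG. None of the promoters passed.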

How the data were processed

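MM.1S cells were profiled in 6 Omni-ATAC libraries, 3 with CB-6644 and 3 with DMSO, grouped by the labels. Per the submitters' processing notes and the study's methods, reads were aligned to hg38 with Bowtie2 2.4.2 and peaks were called in each library with MACS3 3.0. Caller settings are not given in the sources used here. The authors' fold enrichment is the ratio of pile-up to local background, with no scaling between libraries. The deposited -log10 p and -log10 q are those of the peak summit. The authors' edgeR test of differential accessibility needs read counts. These are absent from the lists, and that test was not run.

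Peaks overlapping by 1 bp or more were merged, on the main chromosomes alone. Whole-tag pile-up and background were solved from fold and -log10 p under a Poisson model, and 100% of peaks matched within 0.1% of -log10 p. A region in all 6 lists was represented by each library's strongest peak. Its log2 fold enrichment was quantile normalized and fitted with limma 3.58.1 in R 4.3.3 (trend, Benjamini-Hochberg over 42089 regions), which was tested on simulated data. Other steps used Python 3.11.15 with matplotlib 3.10.9, pandas 2.3.3, scipy 1.17.1 and numpy 2.4.6. Promoters were within 1000 bp of a start site in GENCODE release 44, and 0 regions ran past a chromosome end of the hg38 copy used. The promoter stretch came from RefSeq (GRCh38.p14), where all 5 members were found.

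The members, the gene lists, the tests and the alternatives were chosen with earlier results of these data known. The text names the 5 members, each group-only and promoter region, the region of each member with the largest difference in each direction, listed corepressor genes with a group-only region or a called promoter, and the 3 genes nearest to TBL1XR1 in number of regions among those with at least as many DMSO-only regions and no CB-6644-only region. Regions just outside the DMSO-only rule, neighbors of named regions, corepressor genes with a called region elsewhere and USP24 were added after their values were seen. Some genes of the lists and some sequences are not reported here.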

Additional observations from a re-analysis of the deposited data

How the results depend on the processing

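The number of DMSO-only regions at TBL1XR1 (5) stayed within 4 to 6 in 16 of 17 other settings, 5 to 6 when a library was left out, and was 1 with the 20000 strongest peaks of each list. That 1 was a region called in all 6 libraries otherwise. Leaving out a library, or asking for 2 of 3 libraries, loosens the rule. Taking the 4 libraries of longer shortest peak alone does so too, and 100 kb on each side enlarges the window. Such settings could hardly lower a count of group-only regions, here or at the partners, so that no stability is read from them. The counts did not always hold the same regions: of the 4 with equal numbers of peaks per list, 3 were among the 5, and of the 5 with 50% coverage or with background made equal in the 4 libraries, 4 were, the upstream flank region being replaced by the intronic one 141.4 kb downstream. At the partners the count (4) was 2 with equal numbers of peaks per list, 0 with the 20000 strongest, 2 in the 4 libraries of longer shortest peak with background made equal and a minimum -log10 p of 20, 1 in gene bodies alone and 0 by nearest start site within 200 kb, and 4 to 5 with a library left out. The CB-6644-only count over all members (1) was 0 with the 20000 strongest peaks and when peaks had to cover 50% of a region. It was 2 when 2 of 3 libraries sufficed, with 100 bp around summits, in the 4 libraries of longer shortest peak, with 100 kb on each side and by nearest start site. Leaving out a library gave 1 to 2, the 2 without CB-6644 replicate 2. No partner region passed limma in any of the 13 other settings. Over all regions the 311 calls became 0 with median centring, 4252 with summit pile-up, 3038 with normal scores of -log10 p, 4342 with the shortest-peak set as a term, 2784 in the 4 libraries of longer shortest peak and 0 to 2004 with a library left out (2004 without CB-6644 replicate 2, 6 without CB-6644 replicate 1 and 0 without any other). The TBL1XR1 median difference (0.11) was 0.026 to 0.15 with a library left out, 0.026 without DMSO replicate 3. The difference in partner peaks (-2.67) turned to 0.198 per 10000 peaks and to 0.167 without CB-6644 replicate 3, in a range of -6.83 to 0.167. The labels do not say whether replicate numbers pair the samples. Deviations from the group means correlated at -0.48, -0.33 and 0.33 between libraries of the same number, which does not settle it. With a replicate block, 0 of all regions passed limma, and the TBL1XR1 median was again 0.11. The causes of these changes were not tested. The lists hold no reads, so an open site that was not called cannot be told from a closed one.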
